A study of Mus musculus with 9 samples.

Results

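The genes that changed alike in both transplants were taken from RNA-seq of mouse BM collected 2 weeks after a lethal dose of irradiation and transplantation. The rule used CPM, the count of a name as a share of the total of the mouse, on a scale of 1000000. A gene name was a member when the mean of the isoCDSCs-T mice was 0.8 to 1.25 times the mean of the BMT mice, when all 6 transplanted mice lay on the same side of all 3 Health mice, when the means differed from Health by at least 1.5-fold, and when the higher side reached 1 CPM. Names that start with mt-, Ig, Col, Mmp or Gimap were dropped, whatever the gene. The rule found 504 members among 53172 listed names, or among the 12556 names whose higher side reached 1 CPM. Of these members, 321 were higher and 183 were lower in both transplants than in Health. The members were thus selected on the CPM of all 9 mice, so their levels and fold changes are a description and carry no test.

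Each group held 3 C57BL/6J mice. BMT recipients, aged 16 weeks, were given 9.5 Gy as 5 and 4.5 Gy with 4 h between them, and were infused with 500000 BM cells of neonatal or 8 to 12 weeks old donors. The labels call the next group CDSCs, and the name isoCDSCs-T and its treatment are taken from the study's methods. isoCDSCs-T recipients had the same age, irradiation and cell number and received isoCDSCs, the cells that collagenase releases from the costal cartilage of neonatal donors. Health mice were age-matched and were neither irradiated nor transplanted, so irradiation, infusion and time after them cannot be told apart in what both transplants share. Donor cells carried CD45.1 or ZsGreen and recipients carried CD45.2. isoCDSCs are an unsorted digest and not a purified stem cell, and recipients may keep host cells that survive irradiation. Nothing in the labels says that the mice of a group came from separate experiments, and the intervals below measure only the spread between these mice.

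BM is the tissue in which stem and progenitor cells make blood, within a niche of stromal, endothelial and bone cells. Irradiation removes dividing blood cells and damages that niche. The weeks after a transplant are a time of rapid growth of blood cells, from infused cells or from host cells that survived. The study reported lower donor chimerism after isoCDSCs-T than after BMT. Bone next to the marrow is resorbed by osteoclasts, which derive from the same myeloid precursors as monocytes and acidify the bone surface with a proton pump, the vacuolar ATPase. By the study's methods, CD45+ and CD45- cells were isolated, sequenced in equal amounts and merged, while the labels describe all cells of the marrow. If the libraries are such a mix, a level is not that of native marrow. In either case, fewer cells of a type and less RNA per cell cannot be told apart.

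The gene names in the deposited table could not be taken at face value over most of the genome. The totals of 8741155 to 10181289 counts per mouse are ample, yet of 20 genes that define marrow cells only 3 had a mean of at least 10 CPM. Hbb-bs, the adult beta globin gene, S100a8, a neutrophil calcium-binding protein, and Camp, a neutrophil antimicrobial peptide, had 0 counts in every mouse. The name Olfr648, an olfactory receptor that lies 349502 bases beyond Hbb-bs on chromosome 7 in GENCODE M21, held a mean of 36471 CPM. Of 488 housekeeping genes, which every cell uses, 34.2% reached 10 CPM. Yet the lengths implied by count and TPM were within 1% of the M21 exon lengths for 95.8% of 9773 names. The cause was not tested.

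Each name was therefore checked against its neighbours. A name passed when at least 4 of the 5 nearest housekeeping genes on its chromosome reached 10 CPM. Of the 504 members 43 passed, 30 of the higher and 13 of the lower ones, or 8.53%, against 8.31% of all names at or over 1 CPM. Passing is no proof of a name, since Elane, the neutrophil elastase gene, passed with a mean of 0.0693 CPM. A denser check, added after the data were seen, asked for 8 of the 10 nearest of 990 genes at 3 CPM, and 26 members passed both. Of these, 18 lay on chromosome 4 between positions 3796447 and 57916297 (GRCm38, the build in the submitters' processing notes). The check asked for expressed housekeeping genes near each name, so their levels there are no further evidence for the names. The same stretch held the marrow genes Hemgn, an erythroid nuclear protein, with 1088 to 3165 CPM over the 9 mice, and Pax5, the B-cell commitment factor, with 80.9 to 1563 CPM. These genes were picked after their values were seen, so they are no further evidence for the names either. The members of this stretch are described under their names. The other members are given by the name as listed, which may not be the gene that was measured.

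The chromosome 4 stretch listed 718 names, of which 243 were at or over 1 CPM and 200 of those were protein coding. It held 10 higher and 8 lower members. All 6 transplanted mice were above all Health mice for 40 names of the stretch and below them for 18. Of all 12556 names at or over 1 CPM, 10.6% were above and 5.5% below in the same way, and since the rule used this contrast nothing is read from the count.

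Atp6v0d2, which encodes the d2 subunit of the vacuolar ATPase and is abundant in osteoclasts and some macrophages, was the member of the stretch furthest above Health. It spans 19876841 to 19922605 on the minus strand. It had 54.3, 62.2 and 59.2 CPM in BMT, 53.5, 44.9 and 65.7 CPM in isoCDSCs-T, and 3.36, 3.16 and 6.64 CPM in Health. The lowest transplanted mouse was 6.76 times the highest Health mouse. The mean of the transplants was 12.9 times that of Health, with a log2 fold change of 3.66 ± 0.26 (SE) in BMT and 3.59 ± 0.26 in isoCDSCs-T in the edgeR fit, and the transplants differed by -0.08 on the log2 scale, with a 95% interval from -0.58 to 0.42.

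Ptpn3, a cytoplasmic protein tyrosine phosphatase with a FERM and a PDZ domain (57190841 to 57301837, minus strand), had 3.00 times the Health mean. It had 35.3, 32.7 and 23.8 CPM in BMT, 14, 26.2 and 47.8 CPM in isoCDSCs-T, and 7.94, 8.79 and 13.3 CPM in Health. The groups were apart by little, since the lowest transplanted mouse was 1.06 times the highest Health mouse. The isoCDSCs-T mice spread widely, and with the deposited TPM the groups overlapped. D630039A03Rik, a coding gene of unclear role, was at 7.14 times Health but at few counts, with 1.13 to 3.14 CPM in the transplants and 0.112 to 0.536 CPM in Health, and the fold was 11.0 without Health mouse 3 and 5.40 without Health mouse 1.

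Mdn1 encodes the large ATPase that releases assembly factors from the precursor of the large ribosomal subunit (32657119 to 32775217, plus strand). It had 359, 293 and 337 CPM in BMT, 311, 352 and 384 CPM in isoCDSCs-T, and 204, 201 and 247 CPM in Health. Every transplanted mouse was above the highest Health mouse, by at least 1.19 times, and the mean was 1.56 times that of Health.

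Polr1e, a subunit of RNA polymerase I, which transcribes ribosomal RNA, had 51.3 to 76.0 CPM in the transplants and 38.8 to 48.5 CPM in Health. Exosc3, a subunit of the exosome that trims and degrades RNA, had 101.5 to 133 CPM in the transplants and 71.7 to 88.7 CPM in Health. Their means were 1.54 and 1.53 times that of Health.

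Tomm5, a small subunit of the mitochondrial outer membrane import pore, had 126, 110 and 113 CPM in BMT, 93.6, 139 and 147 CPM in isoCDSCs-T, and 62.6, 62.3 and 86.8 CPM in Health. Its mean was 1.72 times that of Health and the groups lay 1.08 times apart. Gne, the rate-limiting enzyme of sialic acid synthesis, had 149 to 178 CPM in the transplants against 89.5 to 118 CPM in Health. Galnt12, an enzyme that starts mucin-type sugar chains on proteins, had 14.1 to 36.6 CPM against 11.4 to 12.2 CPM. Ankrd6, a cytoplasmic protein of Wnt signalling also called Diversin, had 11.4 to 27.9 CPM against 8.68 to 10.7 CPM. The transplanted mice of Galnt12 and Ankrd6 spread further than the distance that set them apart from Health.

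Among the lower members of the stretch, Klf4 joined a large change to a high level. Klf4 is a zinc finger transcription factor that takes part in monocyte differentiation and is also induced early after cell stimulation (55527143 to 55532466, minus strand). It had 265, 264 and 275 CPM in BMT, 417, 248 and 183 CPM in isoCDSCs-T, and 1011, 1024 and 1330.2 CPM in Health. The BMT mice were nearly equal and the isoCDSCs-T mice spread on both sides of them, while the lowest Health mouse was 2.42 times the highest transplanted mouse. The Health mean was 4.07 times that of the transplants, with log2 fold changes of -2.15 ± 0.26 (SE) in BMT and -2.05 ± 0.26 in isoCDSCs-T. The transplants differed by 0.10 on the log2 scale, with a 95% interval from -0.46 to 0.66.

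Runx1t1, a transcriptional corepressor known from its fusion to RUNX1 in leukaemia (13743436 to 13893649, plus strand), had the largest fold among the lower members of the stretch but few counts. It had 1.34, 1.33 and 3.14 CPM in BMT, 3.34, 1.65 and 1.14 CPM in isoCDSCs-T, and 14.9, 28.4 and 5.25 CPM in Health. The Health mice differed among themselves by more than the lowest of them differed from the highest transplanted mouse, which lay 1.57 times below it. The Health mean was 8.13 times that of the transplants, but 5.06 times without Health mouse 2 and 10.9 times without Health mouse 3, and the interval of the difference between the transplants ran from -1.40 to 1.64 on the log2 scale.

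Fsd1l, a protein with fibronectin and SPRY domains, had 5.71 to 8.20 CPM in the transplants and 15.5 to 31.4 CPM in Health, a mean 3.62 times higher in Health. Mob3b, a member of the MOB family of kinase activators, had 19.5, 18.8 and 20.3 CPM in BMT, 18.6, 18.4 and 17.5 CPM in isoCDSCs-T, and 32.7, 31.0 and 37.7 CPM in Health, and the Health mean was 1.79 times that of the transplants.

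The other lower members with many counts differed less from Health. Pnrc1, a coregulator of nuclear receptors, had 418 to 694 CPM in the transplants and 797 to 1021 CPM in Health. Dnaja1, an Hsp40 co-chaperone of Hsp70, had 525 to 837 CPM against 1117 to 1276 CPM. Slc44a1, a choline transporter, had 81.3 to 123 CPM against 143 to 172 CPM. The Health means of these genes were 1.69, 1.60 and 1.56 times those of the transplants. The last member of the stretch, the small RNA gene Gm22781, lay at 0.229 to 1.338 CPM in the transplants and 1.342 to 1.93 CPM in Health. Its groups nearly touched.

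**Figure D1:**
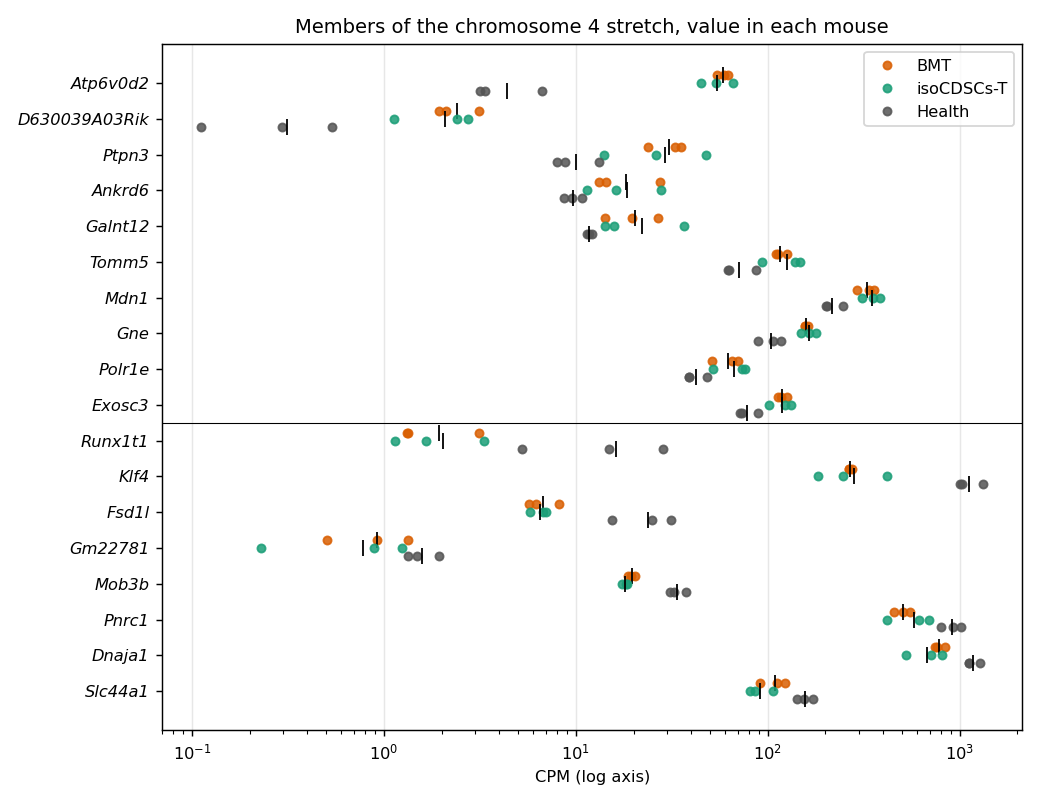
CPM of the 18 members of the chromosome 4 stretch on a log axis, with a point for each mouse (BMT, isoCDSCs-T and Health) and a vertical bar at each group mean; the line divides higher from lower members. Atp6v0d2 at 44.9 CPM or more in every transplanted mouse and Klf4 at 1011 CPM or more in every Health mouse stand furthest from the other side, while Ptpn3, Polr1e, Ankrd6 and Gm22781 nearly touch it.

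Levels of different genes can be compared only per length of transcript. In mean TPM, which divides by gene length, Tomm5 was the most abundant higher member of the stretch with 290 in BMT, 316 in isoCDSCs-T and 173 in Health, and Pnrc1 the most abundant lower member with 524, 589 and 930. Atp6v0d2 had 46.6, 43.4 and 3.45 TPM in the same order, and Klf4 had 190, 197 and 784 TPM.

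The scaling of the libraries moved the smaller changes across the limits of the rule. With TMM, which scales libraries by a trimmed mean of their ratios, 13 of the 18 members of the stretch met the rule again, and Ankrd6, Mdn1, Gne, Polr1e and Exosc3 did not. The groups of Ankrd6 then overlapped, while Mdn1 at 1.49 times, Gne at 1.47, Polr1e at 1.46 and Exosc3 at 1.45 times Health had no overlap but fell under the fold limit. With the deposited TPM the groups of Ptpn3 and Gm22781 overlapped. Atp6v0d2, Tomm5, Mdn1, Klf4, Fsd1l and Mob3b met the rule whichever of the 9 mice was left out. Galnt12 and Polr1e met it in 5 of the 9 cases.

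Promoters are shown for 3 members of the stretch to let the start of each gene be read beside its values: Klf4 as the lower member with the most counts behind a large change, Ptpn3 as the higher member of largest fold with an entry and a known product, and Mdn1 as the higher member with the most counts, over 21836 bases of exon. Each is the 250 bases before the RefSeq start (GRCm38.p6), printed 5′ to 3′ on the strand of the gene, with matches to the motifs named below in capitals. The positions are chr4:55532476-55532725 on the minus strand for Klf4, chr4:57301838-57302087 on the minus strand for Ptpn3 and chr4:32656869-32657118 on the plus strand for Mdn1.
Klf4: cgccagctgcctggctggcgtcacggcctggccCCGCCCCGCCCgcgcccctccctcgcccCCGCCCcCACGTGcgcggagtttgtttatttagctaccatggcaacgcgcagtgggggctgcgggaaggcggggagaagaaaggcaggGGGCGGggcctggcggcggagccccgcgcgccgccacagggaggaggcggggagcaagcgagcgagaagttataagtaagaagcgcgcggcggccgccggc
Ptpn3: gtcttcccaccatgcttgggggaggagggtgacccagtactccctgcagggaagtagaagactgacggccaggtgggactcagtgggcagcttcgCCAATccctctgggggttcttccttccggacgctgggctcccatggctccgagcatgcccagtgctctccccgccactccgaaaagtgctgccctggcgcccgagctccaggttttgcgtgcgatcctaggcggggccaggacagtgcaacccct
Mdn1: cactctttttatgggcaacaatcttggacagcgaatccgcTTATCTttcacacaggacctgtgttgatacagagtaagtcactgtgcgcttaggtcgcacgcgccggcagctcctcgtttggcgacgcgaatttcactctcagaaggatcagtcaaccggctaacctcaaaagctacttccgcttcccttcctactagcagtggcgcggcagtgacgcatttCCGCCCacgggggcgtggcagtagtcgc

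The motifs searched on both strands were the GC box GGGCGG, the CCAAT box CCAAT, the TATA box TATAAA, the E-box CACGTG, the AP-1 site TGANTCA, the GATA site AGATAA and the ETS site GAGGAAG, and matches may overlap. The promoter of Klf4 was 74.0% G and C and held 5 matches, of the GC box and the E-box. That of Ptpn3 held a single CCAAT box, and that of Mdn1 a GATA site and a GC box. Of the 18 members of the stretch 14 had an entry, 8 higher and 6 lower. A GC box was present in 5 of the 8 and 4 of the 6, against 32.9% of 27025 promoters of the same length, and a CCAAT box in 1 of the 8 and 3 of the 6, against 34.5%. No AP-1 or ETS match was found in these 14 windows, while 6.87% and 10.4% of all promoters held one. A match is a run of letters and not a site shown to be bound.

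How closely the transplants were alike could be measured for few members. The median difference between isoCDSCs-T and BMT in the edgeR fit was 0.10 on the log2 scale over the 495 members tested, with 0.16 for the 320 higher and -0.03 for the 175 lower ones. The rule limited the ratio of means, so these medians are small by construction. The median half-width of the 95% interval was 0.53, wider than the window of 0.32 on each side of 0, and for 3 members the interval lay wholly within the window. Exosc3, with an interval from -0.26 to 0.32, was among them. In the other members a difference between the transplants larger than the window was not excluded by the interval. The isoCDSCs-T mean was further from Health than the BMT mean for 244 of the 321 higher and 109 of the 183 lower members. These counts used CPM by column totals and the share over all names was not computed, so nothing is read from them.

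**Figure D2:**
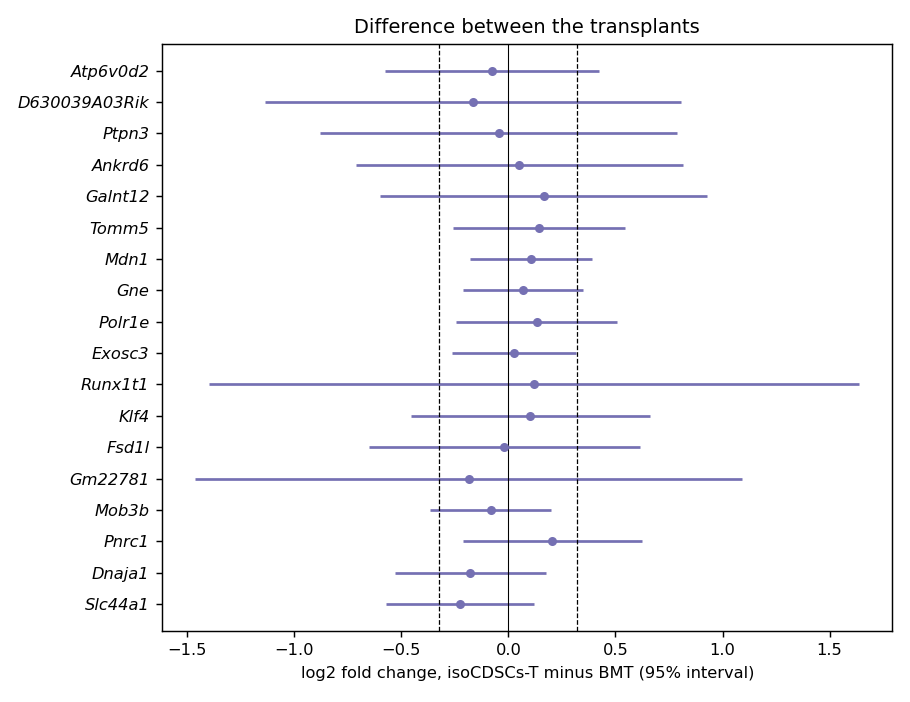
Difference between isoCDSCs-T and BMT for the 18 members of the chromosome 4 stretch as log2 fold change (points) with 95% intervals (bars), and dashed lines at the window of 0.32 on each side of 0. Every interval holds 0, and that of Exosc3, from -0.26 to 0.32, is the only interval of these 18 that stays within the dashed lines.

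The B-cell genes Pax5 and Cd72 differed widely between the transplanted mice. Of the 33 names of the B-lineage list 14 were at or over 1 CPM, and 2 of these, Pax5 and Cd72, a B-cell surface receptor, lay in the chromosome 4 stretch. The other names of the list are not part of this comparison. Their summed level was 194 to 816 CPM in BMT, 142 to 2231 CPM in isoCDSCs-T and 338 to 490 CPM in Health, and it was highest in BMT mouse 3 and isoCDSCs-T mouse 1. These mice also had the highest values of D630039A03Rik, Ankrd6, Galnt12, Runx1t1 and Klf4 among the 6 transplanted mice, 27.8% of the 18 members of the stretch. They had the lowest values of Ptpn3, 5.56% of the 18. Over all members these mice had the highest values for 13.4% of the higher and 15.3% of the lower ones, near the 12.5% of all names at or over 1 CPM. They had the lowest values for 9.03% of the higher and 16.9% of the lower members, against 7.35% of all names. The part of B cells in these levels was not tested.

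Over all 504 members most changes were small. Of the 321 higher members 235 were less than 2 times Health, and 13 had a measured ratio of 5 or more. Of the 183 lower members 87 were less than 2 times below Health, and 12 had a measured ratio of 5 or more. The median fold was 1.71 for higher and 2.02 for lower members. Just inside the limit of the rule lay the names Topbp1 with 1.504, Zc3h7b with 1.504 and Nat8f2 with 1.505 among higher members and Ppp6r2 with 1.503, Gm24905 with 1.511 and Rdh9 with 1.515 among lower ones, and just outside lay Gm43375 with 1.4997 and Kalrn with 1.4987 above and Gm37531 with 1.492, Dglucy with 1.486 and Ercc1 with 1.478 below. In 3 higher and 2 lower members every mouse of the low side had 3 counts or fewer, and their folds are bounds only. The names Mtbp and Gm9748, counted above at a ratio of 5 or more, have bounds of only 3.66 and 3.37. The name Olfr721-ps1 was at least 13.7-fold higher and the name Atp1b2 at least 6.27-fold lower in the transplants, taken against 3 counts per library.

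**Figure D3:**
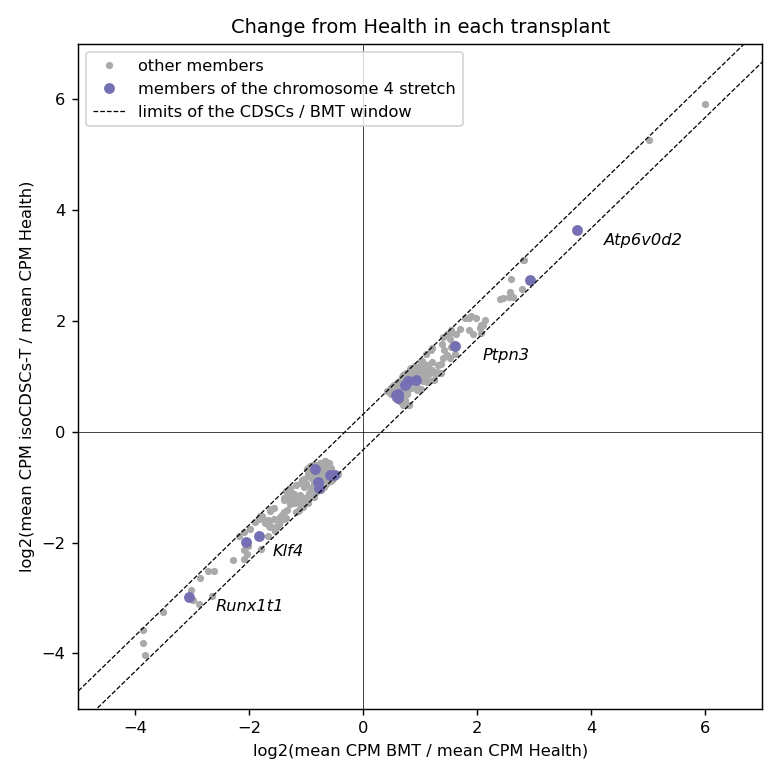
Change of the 504 members from Health as log2 ratio of mean CPM in BMT (x axis) and in isoCDSCs-T (y axis), with the 18 members of the chromosome 4 stretch in purple and dashed lines at 0.8 and 1.25 for the ratio of the transplants. The rule confines the points to the band; most lie near its inner ends, with Atp6v0d2 at 12.9 times Health and Runx1t1 at 8.13 times below it (5.06 without Health mouse 2) far out. The 5 members with 3 counts or fewer on the low side are drawn at their measured ratio.

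In the edgeR fit of the mean of both transplants against Health, 206 of the 320 higher members tested and 131 of the 175 lower ones had an adjusted p-value under 0.05 in their direction. Of all 12572 names tested, 5.73% were called higher and 5.81% lower. The rule used this contrast, and nothing is read from the counts. By the same limit 36 of the 320 higher and 55 of the 175 lower members were called in BMT against Health, where 0.994% of all names were called higher and 1.45% lower. In isoCDSCs-T against Health 210 of the higher and 112 of the lower members were called, where 8.69% of all names were called higher and 8.28% lower. These comparisons share the Health mice. The rule used the mice of both, so nothing is read from these counts either. Between isoCDSCs-T and BMT the edgeR fit called 0 of the 495 members tested, against 1.03% of all names, and 12 members had an unadjusted 95% interval that excluded 0. The rule limited the ratio of these means, so few calls could occur and nothing is read from the count.

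The balance between directions depended on the scaling. Of the members by column totals 63.7% were higher, against 47.2% of the 453 with TMM (214 higher and 239 lower) and 50.4% of the 464 with DESeq2 size factors (234 and 230). Single mice moved the counts as well. Without Health mouse 3 the rule gave 602 higher and 292 lower members, without BMT mouse 2 it gave 497 higher ones, and without Health mouse 2 it gave 282 lower ones. Health mouse 3 was the Health mouse nearest to the transplants in 205 of the 321 higher members, but in 34 of the 183 lower ones, the fewest of the 3 Health mice.

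Members chosen without a mouse could be looked up in that mouse. Over the 6 transplanted mice, 88.2% of the names chosen as higher and 85.8% of those chosen as lower lay beyond all Health mice in the mouse left out, beside 56.1% and 50.6% of all names at or over 1 CPM with the direction taken from the other mice. Over the 3 Health mice, which must lie beyond all 6 transplanted mice, the shares were 74.8% and 65.1%, beside 38.0% and 33.4% of all names. Health mouse 3 had the lowest shares, with 64.1% of 602 names chosen as higher beside 29.4% of all names, and 56.2% of 292 chosen as lower beside 41.4%. The mice of the other side took part in the choice, which raises the shares of the chosen names also where a name does not differ. The shares of all names were not chosen in that way, so nothing is read from the gap.

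Members lay on every autosome and the X chromosome, at 2.20% of the names at or over 1 CPM on X, 6.04% on chromosome 15 and shares between these on the other chromosomes. Protein coding genes made up 71.7% of the higher and 66.1% of the lower members and 70.0% of all names at or over 1 CPM. The median exon length was 3319 bases for higher, 3725 for lower members and 3458 for all. Lower members had a median of 6.71 CPM over the 9 mice, higher members 17.6 CPM and all names 12.9 CPM. Among names next to each other on a chromosome there were 48 pairs of members, and 41 of these pairs had the same direction. The share over all adjacent names was not computed, so nothing is read from this count. Adjacent names may share reads, and the strand setting of the counting is not given in the sources used here.

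The other 25 members that passed the neighbour check lay elsewhere. The name Rai14, which belongs to an actin-binding protein of chromosome 15 and passed both checks, had 23.9, 19.4 and 26.6 CPM in BMT, 28.3, 18.8 and 24.7 CPM in isoCDSCs-T, and 10.6, 10.2 and 14.1 CPM in Health, 2.03 times higher in the transplants. The higher members also included Gm48462, Gm13855, Mettl26, Gm10505, Cbarp, Gm44760 and Zfp771, at 1.54 to 2.07 times Health, and Gm10505 had 733 against 410 CPM. Heatr6 was 6.74 times lower in the transplants, with 60.9 to 155 CPM against 684 to 695 CPM in Health, a close group. Heatr6 passed the neighbour check but not the denser one. The name H2-DMa, which belongs to a protein that loads peptides on MHC class II, had 1.37 to 4.86 CPM in the transplants and 5.53 to 5.89 CPM in Health. Gm36551 and Ino80e were 2.37 and 1.82 times lower.

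Of 24 lists of marker and pathway genes, written from general knowledge, 14 held a member. Of the members in a list, 13 higher ones had names that did not pass the neighbour check, as did 2 of the 5 lower ones. In the list of immediate early and heat shock genes, Klf4 and Dnaja1 were lower among 11 names at or over 1 CPM, and none was higher. In that of antigen presentation, H2-DMa and the name H2-D1 were lower among 13. The median log2 fold changes of these lists, over names as listed, were -0.27 and -1.11, against -0.02 over all names tested. Over all names at or over 1 CPM, 2.56% were higher and 1.46% lower members, and nothing is called particular to a list.

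The remaining lists rested on names that did not pass. The names Oas3 and Usp18 were higher among 27 of the interferon list (median log2 fold change 0.16), Per1 and Csnk1e among 13 of the clock list (0.11), and Gapdh and Aldoa among 16 of the list of oxidative stress and metabolism (-0.19). A single name was higher in the lists of ribosomal proteins (Rps7), T and NK cells (Cd4), neutrophils (Fcgr3), bone, cartilage and matrix (Fbn1) and muscle (Eno3), and Vcam1 stood in both the monocyte and macrophage list and the stromal list. The name Nfe2 was higher and Tfrc lower in the erythroid list, and Tfrc was also in the list of iron and heme. The lists of marrow defining genes, p53 targets, B lineage, eosinophils and mast cells, megakaryocytes, stem and progenitor cells, endothelium, S phase and mitosis, cytokines, and sex linked genes held 0 members among 6 to 25 names at or over 1 CPM each.

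The members with the highest CPM had names that did not pass and are given as listed. The name Caskin1 had a mean of 6784 CPM in the transplants and 4146 CPM in Health, Kmt2e 1089 and 610 CPM, and Atp13a2 850 and 515 CPM. Among lower members the name Mrpl38 had 3396 and 5779 CPM, Mri1 1536 and 3759 CPM, and Gemin7 689 and 2154 CPM. The name H2-D1 had 2.85 to 8.47 CPM in the transplants and 75.6 to 82.4 CPM in Health, 13.2 times lower, with the Health mice close to each other.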

How the data were processed

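RNA-seq of BM from 9 mice, 3 each of BMT, CDSCs and Health by the labels, was analysed, and CDSCs is called isoCDSCs-T here after the study's methods. The authors isolated CD45+ and CD45- cells, sequenced equal amounts and merged the depth-normalised data, while the labels describe all cells of the marrow. Poly(A) RNA was captured. Reads were trimmed with trimGalore, aligned with hisat2 and counted with featureCounts, and the submitters' processing notes name GRCm38. The annotation and strand setting are not given in the sources used here. The deposited counts are whole reads per gene name, and the authors computed the deposited TPM from them. The tables hold 0 other columns of samples.

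CPM were counts divided by the column total (8741155 to 10181289), so that 3 counts, the floor of a single library, are 0.295 to 0.343 CPM, a limit that covers counting error only. The members and lists were chosen with earlier results of these data known. Tests across names used edgeR 4.0.16 in R 4.3.3 (filterByExpr, TMM, glmQLFit and glmQLFTest, all 9 mice, group only, two-sided, Benjamini-Hochberg adjusted p-value under 0.05) on 12572 names. SE are the log2 fold change divided by the root of F. Names were placed in GENCODE M21, which matched 494 of 504 members. Genes named in the text are, in each direction, the 10 of largest fold and the 10 of highest level among members that passed the neighbour check with at least 10 counts in every mouse of the higher side, every member of a list, the names at the fold limit and the 3 most abundant members that did not pass. Pax5, Cd72, Hemgn and the members at 3 counts or fewer were named after their values were seen. A name at the fold limit is not reported here. The rule and edgeR were tested on simulated counts. Alternatives were TMM, DESeq2 1.42.0 size factors and Wald test, TPM, other limits, no filter on low counts, a replicate block and each mouse left out. Figures used matplotlib 3.10.9, and tables Python 3.11.15 with numpy 2.4.6 and pandas 2.3.3.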

Additional observations from a re-analysis of the deposited data

How the results depend on the processing

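With a floor of 5 CPM the rule gave 120 lower members, with at least 2-fold it gave 86 higher and 96 lower, and with a ratio of the transplants from 0.9 to its inverse it gave 145 and 76, each by construction of a stricter limit. The other scalings, the deposited TPM and keeping all names left both counts within 1.5 times. Leaving out a mouse gave 320 to 602 higher and 171 to 292 lower members. Between 210 and 312 of the 321 higher and between 124 and 181 of the 183 lower members met the rule again. The number of names called between the transplants and Health was 1450, and became 2286 with no filter on low counts, 907 with a replicate block and 522 to 2403 with a mouse left out, the fewest without Health mouse 2 (527 without Health mouse 1, 861 without BMT mouse 1, 896 without BMT mouse 3) and the most without isoCDSCs-T mouse 1. The cause was not tested. The labels give a replicate number in each group and do not say that it pairs the mice. Deviations from the group means correlated between -0.34 and 0.22 for mice of the same number. For mice of other numbers they correlated between -0.41 and 0.43. Whether mice of the same number shared a batch was not tested. Depth limits members near 1 CPM, which rest on about 10 counts per mouse.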
